A study of Mus musculus with 18 samples.

Results

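The genes described here encode the pyruvate dehydrogenase complex, its kinases and phosphatases, the mitochondrial pyruvate carrier, the enzymes of the citric acid cycle and the enzymes that exchange carbon with it. They form a fixed list of 35 gene symbols whose rule uses no measured value, although earlier results of these data were known when it was drawn up. All 35 were found among the 29456 genes with a count and all 35 passed the filter on low counts, which 16096 genes passed. Poly(A) RNA of the tibialis anterior (TA) muscle, a fast muscle of the lower leg, had been sequenced from mice at the endpoint of 5 models of cancer cachexia, the muscle wasting that accompanies tumours. There were 18 libraries in 9 groups of 2, which their titles describe as biological replicates.

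LLC is a Lewis lung carcinoma line, injected into muscle of C57BL/6 mice whose controls received PBS. C26, a line from colon carcinoma, was given subcutaneously to CD2F1 mice, again with PBS controls. KPC (50000 cells) and KPCML1 (1000 cells) are tumour lines placed orthotopically in C57BL/6 mice, and both were compared with the same 2 controls that received only Matrigel, the carrier gel. KPP is a genetic tumour model on the C57BL/6 background, induced with tamoxifen, and its controls are mice of the model that bear no tumour. Whether the KPP controls received tamoxifen, and which alleles the model carries, is not stated in the sources used here. Strain, route of injection and cell number differ between the experiments and cannot be told apart from the tumour type.

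The pyruvate dehydrogenase complex turns pyruvate from glycolysis into acetyl-CoA and so decides whether carbon from carbohydrate enters the citric acid cycle. Pyruvate dehydrogenase kinases phosphorylate the complex and switch it off, and the phosphatases reverse this. In skeletal muscle Pdk4 is the kinase gene known to rise in fasting, when muscle spares glucose and burns fat, and Foxo and peroxisome proliferator-activated receptors are known to act on it. Kinase and subunit genes are therefore set against each other below. RNA levels do not measure the phosphorylation of the complex.

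The promoters of Pdk4 and Dlat are shown because these were the kinase and the subunit gene with the largest mean tumour effects. Both are RefSeq sequences of build GRCm38.p6, minus strand, given 5′ to 3′ from 250 to 51 bases before the annotated start. The Pdk4 stretch is chr6:5496329-5496528, with a CCAAT box in capitals, read on the opposite strand, whose leftmost base lies at -131. The Dlat stretch is chr9:50659831-50660030, with a GC box (GGGCGG) in capitals that begins at -239.
Pdk4: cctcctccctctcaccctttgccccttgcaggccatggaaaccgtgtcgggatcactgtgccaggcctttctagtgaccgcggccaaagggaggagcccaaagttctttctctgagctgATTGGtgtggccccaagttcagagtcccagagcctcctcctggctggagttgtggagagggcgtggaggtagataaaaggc
Dlat: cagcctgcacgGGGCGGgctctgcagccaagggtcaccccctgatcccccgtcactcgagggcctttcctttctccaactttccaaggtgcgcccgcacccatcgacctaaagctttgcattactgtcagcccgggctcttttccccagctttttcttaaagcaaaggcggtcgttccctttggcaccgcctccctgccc
The window searched ran from 250 bases before to 50 bases after the start, on both strands, and 32 of the 35 genes had an entry. CCAAT was found in 20 of the 32 genes and in 41.1% of all 27025 genes with a promoter of that length, GGGCGG in 22 of 32 and in 38.2%, and TATAAA in 1 of 32 (Got2) and in 15.7%. These 3 motifs were added after the data were seen. The letters GTAAACA, bound by Foxo factors, occurred in 4.05% of all genes, TNAAGGTCA, bound by oestrogen-related receptors, in 1.43%, and the direct repeat element of PPAR receptors (DR1) in 0.0481%. These 3 were found in 0 of the 32 genes, which says only that the letters are not in this window.

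The libraries held 22546541 to 36673780 fragments assigned to transcripts. Mitochondrially encoded transcripts took 5.94 to 22.4% of the fragments matched to a gene. This share was lower in every tumour library than in its controls, at 12.1 to 16.9% against 20.5 to 21.6% in the LLC experiment. It was 9.04 to 11.2% (KPCML1) and 13.7 to 15.3% (KPC) against 17.6 to 20.2%. In the other experiments it was 5.94 to 11.0% against 14.6 to 21.5% (C26) and 10.4 to 11.9% against 17.5 to 22.4% (KPP). All 7 fast myofibre markers were detected in every group, at a summed 62472 to 162345 CPM (counts scaled to the normalised library size). Summed over 7 markers, slow and oxidative fibre genes stood at 170.2 to 1547 CPM and overlapped between tumour and control in the orthotopic and C26 experiments, while they were lower in the LLC (189 to 357 against 603 to 886) and KPP (343 to 647 against 652 to 1072) tumour libraries. Their members did not move alike: the median log2 fold change of the 7 was -0.04 (LLC, 0 called), 1.21 (KPP, 1 lower) and 2.17 (KPC, 3 higher). The 5 erythroid markers summed to 584 to 1671 CPM with LLC tumours against 199.6 to 252 in their controls, and to 1484 to 4704 with orthotopic tumours against 233 to 256. In the C26 and KPP experiments they stood at 114 to 220.1 against 223 to 237 and at 312 to 2372 against 273 to 587. The 5 neutrophil markers were at most at 1.15 CPM in every control and at 4.09 to 67.4 CPM with tumours, and the 5 endothelial markers were at 56.8 to 77.5 CPM with KPP tumours against 176 to 187. The 5 Schwann cell markers were at 11.1 to 14.8 CPM with KPP tumours against 22.5 to 37.0, and at 29.5 to 39.0 (KPCML1) and 24.2 to 26.5 (KPC) against 17.2 to 19.1. With KPC tumours these sums hide members that did not move alike, since 0 were called higher and 1 lower. Their median log2 fold change was 0.01 with KPC and 0.57 with KPCML1 tumours (1 higher, 0 lower). Macrophage markers, also 5, stood at 31.0 to 34.0 CPM with KPCML1 tumours against 12.2 to 19.8 and overlapped elsewhere. The 5 markers of fibro-adipogenic cells stood at 305 to 725 CPM in controls and 105 to 399 with tumours. The 5 adipocyte markers were higher with LLC, KPCML1 and KPC tumours (9.90 to 62.7 CPM against 1.5 to 7.0) and lower with C26 and KPP tumours (1.77 to 10.4 against 31.0 to 87.7), and 5 epithelial tumour markers summed to at most 9.23 CPM in any library. The part of these shifts in the results below was not tested.

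Genes of this pathway were mostly lower with a tumour. In the mean tumour effect, which weights the 4 experiments equally, 21 of the 35 genes (60%) were lower and 4 (11.4%) higher at 0.05 by the quasi-likelihood test of edgeR, with p-values adjusted over all genes by the Benjamini-Hochberg method, where 26% of all tested genes were lower and 25.7% higher. The median log2 fold change of the 35 genes was -0.45, against -0.01 over all tested genes. The 4 that rose were Pdk4, Pdk2, Idh2 and Pcx, and none of them is a subunit of the dehydrogenase or an enzyme of the NAD-linked cycle. A lower level in whole muscle cannot be told apart from a smaller share of the cells that hold the RNA.

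C26 tumours gave the most calls of the 5 comparisons. There 18 of the 35 genes (51.4%) fell and 2 (5.71%) rose, against 9.80% and 11.5% of all genes. In LLC mice 14 (40.0%) fell and 1 (2.86%) rose, against 6.23% and 7.39%. The KPP comparison had 10 genes lower (28.6%) and 2 higher, against 19.3% and 17.4%. With KPCML1 tumours 5 genes (14.3%) were lower and 2 higher, against 4.38% and 4.16% of all genes. KPC tumours lowered 4 genes (11.4%) and raised 3 (8.57%), both below the 13.7% and 15.3% of all genes that moved that way, so the share of the pathway called in this model is no more than the background. Of the 35 genes 26 passed in at least 1 comparison, 21 of them lower and 5 higher, and no gene passed in both directions. Dlat, Pdhx and Idh3a were lower in all 5 comparisons. The shares of all tested genes that passed in at least 1 comparison, or were lower in all 5, were not computed. These counts over several comparisons therefore cannot be weighed against them.

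The scaling of the libraries touches these splits. With library totals and no scaling factor, the median of all genes moved by 0.25 (LLC), 0.16 (KPCML1), -0.14 (KPC), 0.25 (C26) and -0.05 (KPP) on the log2 scale. The LLC split then became 5 higher and 5 lower, the KPC split 3 and 7, and the mean effect 7 and 20. The shares of all genes called higher or lower with library totals were not computed, so these splits cannot be weighed against them. The median of the 5 subunit genes minus that of all genes was -0.89 in the LLC comparison with the main scaling and -0.88 with library totals. For KPC it was -0.34 with both. A scaling factor shifts all genes of a comparison nearly alike, so this difference could hardly change and does not test the scaling.

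**Figure D1:**
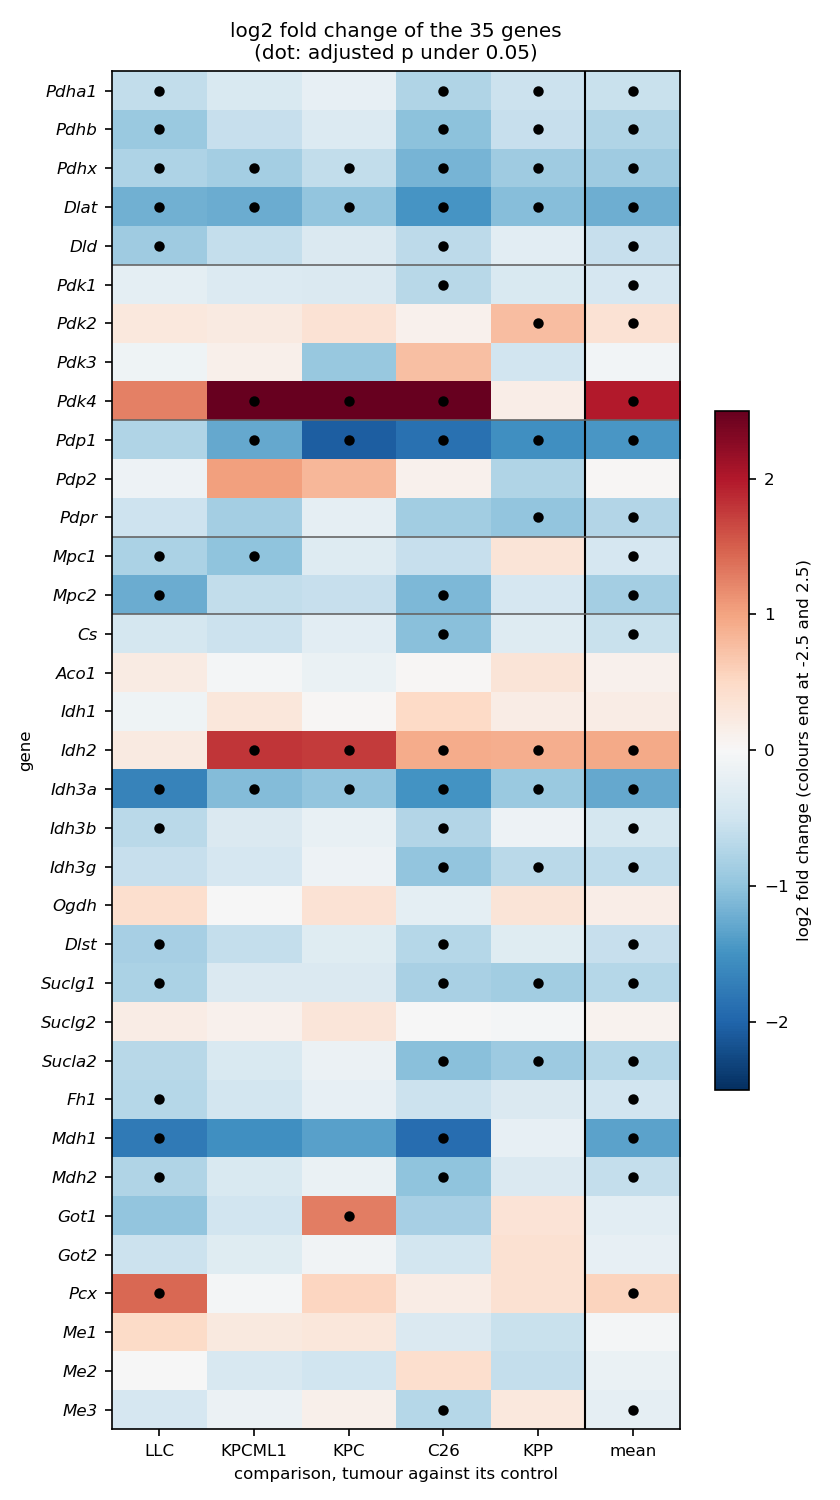
Log2 fold change of the 35 genes (rows, grouped from the top as subunits, kinases, phosphatases, pyruvate carrier and the remaining enzymes) in the 5 comparisons of tumour with control and in the mean tumour effect (columns), with a dot where the adjusted p was under 0.05. Blue (lower with tumour) fills most rows, Dlat, Pdhx and Idh3a have a dot in every column, and Pdk4 is dark red with KPCML1, KPC and C26 tumours but pale in the KPP column.

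Pdk4, on chromosome 6 (mm10 chr6:5483351-5496309, minus strand), had the largest increase of the pathway in the mean tumour effect and with KPCML1, KPC and C26 tumours. Pcx rose more with LLC tumours. With KPP tumours several genes had larger values than Pdk4, and Idh2 and Pdk2 were the 2 of them that passed. Pdk4 stood at 305 and 271 CPM in the LLC controls and 624 and 751 in the LLC tumour libraries. The Matrigel controls held 208 and 141 CPM, against 2334 and 1924 with KPCML1 and 1643 and 5029 with KPC tumours. C26 controls had 266 and 217 CPM and C26 tumour libraries 1616 and 1293. In these 4 comparisons both tumour libraries lay above both controls. The KPP experiment differed: its controls held 368 and 1010.0 CPM and its tumour libraries 1029 and 524, so that the groups overlapped and 1 control was above every other control library of the series.

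The log2 fold change of Pdk4 was 4.26 ± 0.56 (± standard error) with KPC tumours (edgeR adjusted p = 0.000267), 3.61 ± 0.54 with KPCML1 (adjusted p = 0.00216) and 2.59 ± 0.52 with C26 (adjusted p = 0.0037). In LLC mice it was 1.26 ± 0.49 and did not pass (edgeR adjusted p = 0.111), although the 2 groups did not overlap. This LLC value passed when the 4 LLC libraries were fitted alone (1.25, edgeR adjusted p = 0.00101), with no filter on low counts (1.29, adjusted p = 1.97e-06) and with library totals (1.52, adjusted p = 0.0312). In the KPP comparison the value was 0.17 ± 0.49 (edgeR adjusted p = 0.809), with a 95% interval from -0.87 to 1.22. Its sign turned without KPP control 1 (-0.38) or without KPP tumour 1 (-0.40) and it was 1.11 at most without another library. The mean tumour effect of Pdk4 was 1.99 ± 0.25 (edgeR adjusted p = 1.7e-05).

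Pdk2, the other kinase gene abundant in muscle, rose in the KPP comparison by 0.77 ± 0.16 on the log2 scale (edgeR adjusted p = 0.00229), where Pdk4 did not pass. Its levels were 299 and 337 CPM in the LLC controls against 336 and 429.8 in the LLC tumour libraries, and 398 and 374 in the Matrigel controls against 428 and 468 with KPCML1 and 500.3 and 491 with KPC tumours. They were 432 and 388 CPM in controls against 436 and 448 with tumour in the C26 experiment, and 333 and 362 against 559 and 629.9 in the KPP experiment. Both KPP tumour libraries lay above every other library of the series for this gene. The mean effect of Pdk2 was 0.36 ± 0.08 (edgeR adjusted p = 0.00141), and the KPP value with its 4 libraries fitted alone had an adjusted p of 0.0533. Pdk1 moved the other way: it fell by 0.69 with C26 tumours (edgeR adjusted p = 0.0103, lost in 3 of 12 alternatives, such as without C26 control 2 or tumour 2, with adjusted p up to 0.0992) and its mean effect was -0.42 ± 0.08 (adjusted p = 0.00059). Pdk3, which is scarcely expressed in muscle, stayed at or below 1.20 CPM in every library and passed in no comparison.

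TPM, abundances that correct for transcript length and are scaled to the same total in every library, show which kinase gene dominated. Pdk4 made up 23.2 and 17.9% of the summed kinase TPM in the Matrigel controls, where Pdk2 made up 71.8 and 75.9%. With KPCML1 tumours the Pdk4 share was 76.8 and 71.1%, and with KPC tumours 66.3 and 86.3%. Pdk2 thus led in these controls and Pdk4 in the tumour libraries. The same exchange appeared in the C26 experiment, from 26.9 and 24.7% Pdk4 to 69.4 and 63.9%. It was smaller in the LLC experiment, from 37.0 and 32.0% to 52.6 and 51.4%. In the KPP experiment the Pdk4 share was 38.9 and 61.7% in controls and 52.5 and 33.8% with tumour, with no separation.

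**Figure D2:**
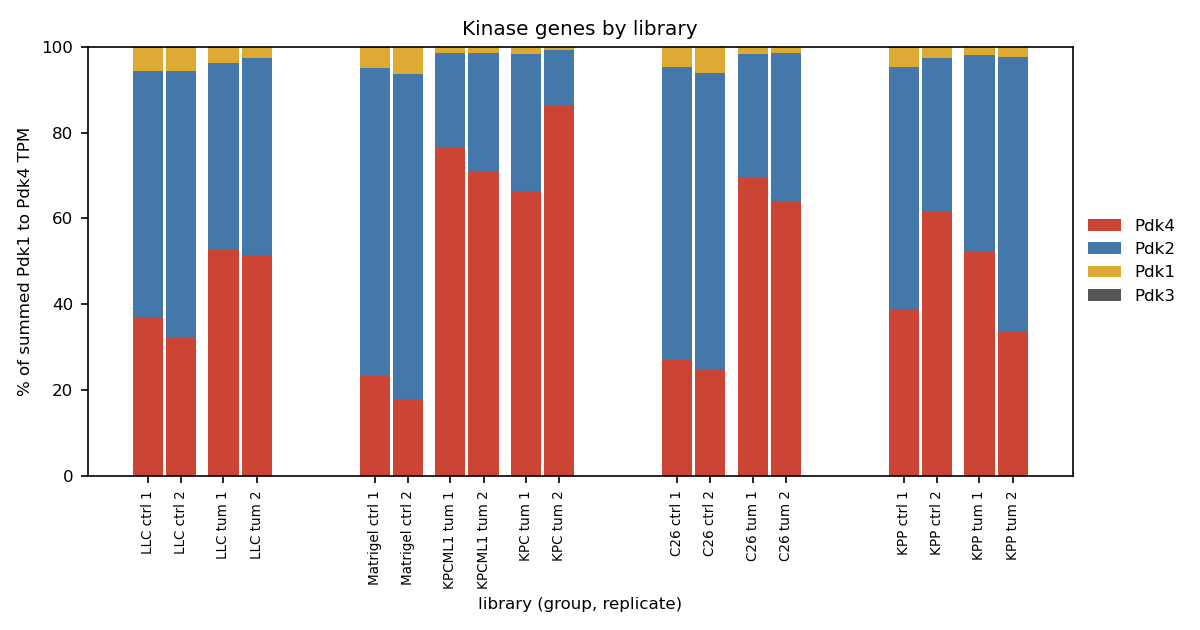
Share of the summed TPM of Pdk1, Pdk2, Pdk3 and Pdk4 (vertical axis, percent) taken by each gene in each of the 18 libraries (horizontal axis, ctrl for control and tum for tumour, with the replicate number). Pdk4 (red) is below 40% in both controls of the LLC, Matrigel and C26 groups and above 50% in their tumour libraries, while the 4 KPP libraries are mixed, from 33.8 to 61.7%.

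The 5 subunit genes moved against Pdk4. In the mean tumour effect all 5 were lower (edgeR adjusted p at most 0.000144), with log2 fold changes of -0.55 ± 0.08 for Pdha1 and -0.75 ± 0.09 for Pdhb, which encode the decarboxylase, -1.21 ± 0.08 for Dlat, the acetyltransferase core, -0.89 ± 0.10 for Pdhx, the protein that ties Dld to that core, and -0.57 ± 0.09 for Dld, the dihydrolipoamide dehydrogenase that other 2-oxoacid dehydrogenases share. All 5 passed with LLC and C26 tumours, 4 with KPP and 2 each with KPCML1 and KPC. Of all tested genes 6.23% (LLC), 9.80% (C26), 19.3% (KPP), 4.38% (KPCML1) and 13.7% (KPC) were lower, and 26% in the mean tumour effect. Over the 25 combinations of gene and comparison, both tumour libraries lay below both controls in 24, and the exception was Dld in the KPP experiment. The share of all tested genes that separate in this way was not computed, so the count cannot be weighed against it. KPC and KPCML1 use the same controls, so the combinations are not independent.

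Dlat (chr9:50634633-50659780, minus strand) fell most. It was at 291 and 274 CPM in the LLC controls against 117 and 129 in the LLC tumour libraries, and 224 and 311 in the Matrigel controls against 118 and 110.2 with KPCML1 and 131 and 141 with KPC tumours. Its levels were 274 and 248 CPM in controls against 102 and 86.0 with tumour in the C26 experiment, and 199.9 and 225 against 108 and 94.7 in the KPP experiment. No tumour library of the series reached the lowest control, and the log2 fold changes were -1.20 ± 0.17 (LLC), -1.23 ± 0.17 (KPCML1), -0.98 ± 0.17 (KPC), -1.47 ± 0.18 (C26) and -1.07 ± 0.17 (KPP), with edgeR adjusted p from 0.000164 to 0.00162. Each of these calls held under every alternative run, with an adjusted p of at most 0.0360.

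Pdhx (chr2:103021075-103073513, minus strand) was likewise lower in each comparison but with less margin. It was measured at 127 and 108 CPM in the LLC controls against 66.0 and 71.4 in the LLC tumour libraries, and 82.2 and 113 in the Matrigel controls against 50.7 and 58.6 with KPCML1 and 57.5 and 69.4 with KPC tumours. The values were 108 and 106 CPM in controls against 48.8 and 46.6 with tumour in the C26 experiment, and 82.0 and 103 against 59.1 and 41.5 in the KPP experiment. Tumour and control libraries did not overlap in any experiment, and the log2 fold change ran from -0.62 ± 0.21 (KPC, edgeR adjusted p = 0.0348) to -1.17 ± 0.21 (C26, adjusted p = 0.00189). The call was lost with an adjusted p up to 0.305 in the KPC comparison without Matrigel control 2 or either KPC tumour library, up to 0.248 in KPCML1 without Matrigel control 2 or either tumour library, up to 0.198 in LLC without any of its 4 libraries, and up to 0.0747 in KPP without control 2 or tumour 2. The KPC and KPCML1 calls were also lost with the libraries of that experiment alone, and the LLC call with library totals.

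Pdha1 had 1037 and 886 CPM in the LLC controls against 668 and 580.2 in the LLC tumour libraries, and 749.8 and 844 in the Matrigel controls against 639 and 583 with KPCML1 and 661 and 731 with KPC tumours. It had 818 and 829 CPM in controls against 522 and 462 with tumour in the C26 experiment, and 715 and 854 against 520.2 and 562 in the KPP experiment. The decrease passed in the LLC (-0.62 ± 0.17), C26 (-0.74 ± 0.17) and KPP (-0.53 ± 0.17) comparisons and was -0.38 ± 0.17 with KPCML1 and -0.20 ± 0.17 with KPC tumours (edgeR adjusted p = 0.168 and 0.397). The LLC call was lost in 6 of 12 alternatives, among them without control 1 or either tumour library (adjusted p up to 0.213). In KPP it was lost in 6 of 13, among them without control 2 or either tumour library and with the KPP libraries alone (up to 0.194), and the C26 call without tumour 2 (0.0576).

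Pdhb was at 451 and 397 CPM in the LLC controls against 237 and 208 in the LLC tumour libraries, and 277 and 379 in the Matrigel controls against 203 and 234 with KPCML1 and 245 and 276 with KPC tumours. The corresponding levels were 329 and 339 CPM in controls against 166 and 163 with tumour in the C26 experiment, and 276 and 370.1 against 238 and 193 in the KPP experiment. It fell by 0.93 (LLC), 1.02 (C26) and 0.58 (KPP) on the log2 scale, and with KPCML1 and KPC tumours the values were -0.59 ± 0.20 and -0.33 ± 0.19 (edgeR adjusted p = 0.0785 and 0.216). Without KPP control 2 or tumour 2 the KPP value was -0.33 or -0.37 and did not pass (adjusted p up to 0.296), and this call was lost in 6 of 13 alternatives. The LLC call was lost without control 1 or tumour 2 (up to 0.0959).

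For Dld there were 443 and 378 CPM in the LLC controls against 238 and 204 in the LLC tumour libraries, and 271 and 370.2 in the Matrigel controls against 212 and 211 with KPCML1 and 245 and 258 with KPC tumours. The levels were 325 and 357 CPM in controls against 229.8 and 204 with tumour in the C26 experiment, and 283 and 384 against 290.4 and 264 in the KPP experiment. Dld passed with LLC (-0.89 ± 0.19) and C26 (-0.65 ± 0.19) tumours, and in the KPP experiment 1 tumour library lay above 1 control (log2 fold change -0.27 ± 0.19, edgeR adjusted p = 0.283). The LLC call was lost without control 1 or tumour 2 (adjusted p up to 0.102), and the C26 call in 5 of 12 alternatives, among them without either control or tumour 2 (up to 0.153).

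**Figure D3:**
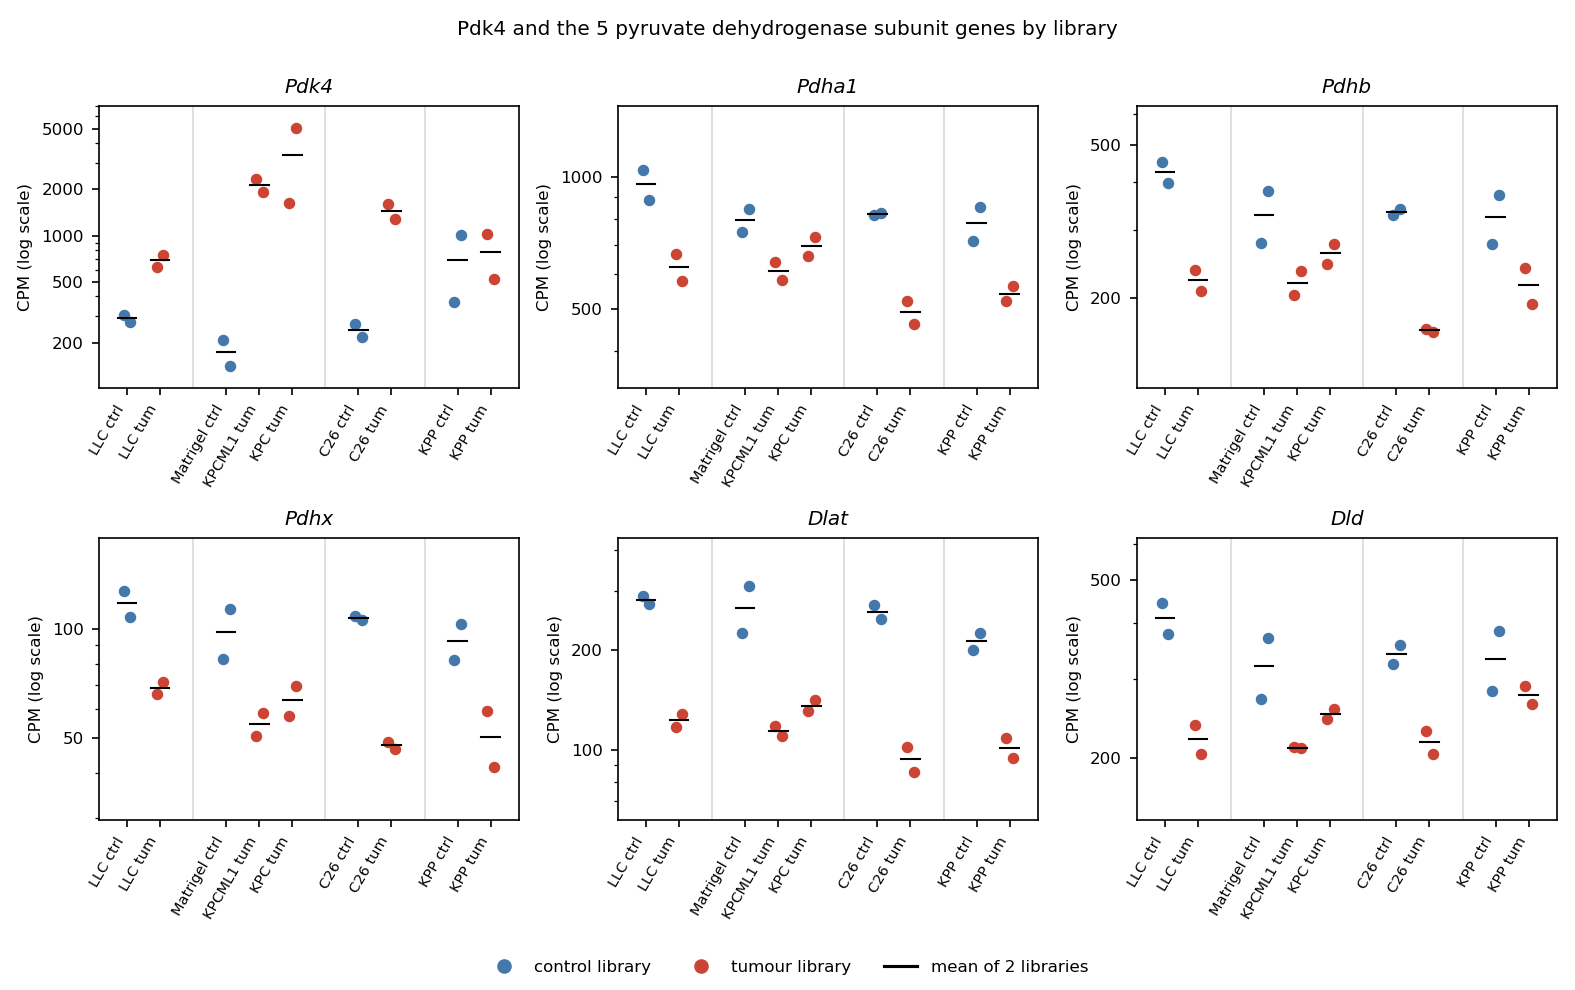
CPM (vertical axes, log scale) of Pdk4 and the 5 subunit genes in each of the 18 libraries, with blue points for controls, red for tumour libraries and a black bar for the mean of 2 libraries. Pdk4 is higher in the tumour libraries of all experiments but KPP, and each subunit gene is lower in the tumour libraries, with Dld overlapping in the KPP experiment.

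Pdk4 was then set against the subunits within each library. The ratio of the Pdk4 TPM to the geometric mean TPM of the 5 subunit genes does not depend on library scaling. It was 0.558 and 0.566 in the LLC controls and 2.17 and 2.71 with tumour, 0.535 and 0.281 in the Matrigel controls, 9.21 and 7.42 with KPCML1 and 5.54 and 15.4 with KPC tumours. C26 controls had 0.589 and 0.477 and C26 tumour libraries 6.74 and 6.05. Pdk4 was thus below the geometric mean of the subunits in each of these 6 controls and above it in each of their tumour libraries. This gives no rank against single subunits. In LLC control 1 Pdk4 had 82.0 TPM and Pdhx 50.9, and in LLC tumour 1 Pdk4 had 229 and Pdha1 293.

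The difference of the mean log2 ratios, tumour minus control, was 2.11 for LLC, 4.41 for KPCML1, 4.57 for KPC and 3.59 for C26, where the SD of 2 libraries was at most 1.04. KPP controls were already at 0.960 and 2.18 and KPP tumour libraries at 3.74 and 2.16, a difference of 0.97 with overlapping groups. No test was made of this ratio, which combines chosen genes.

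**Figure D4:**
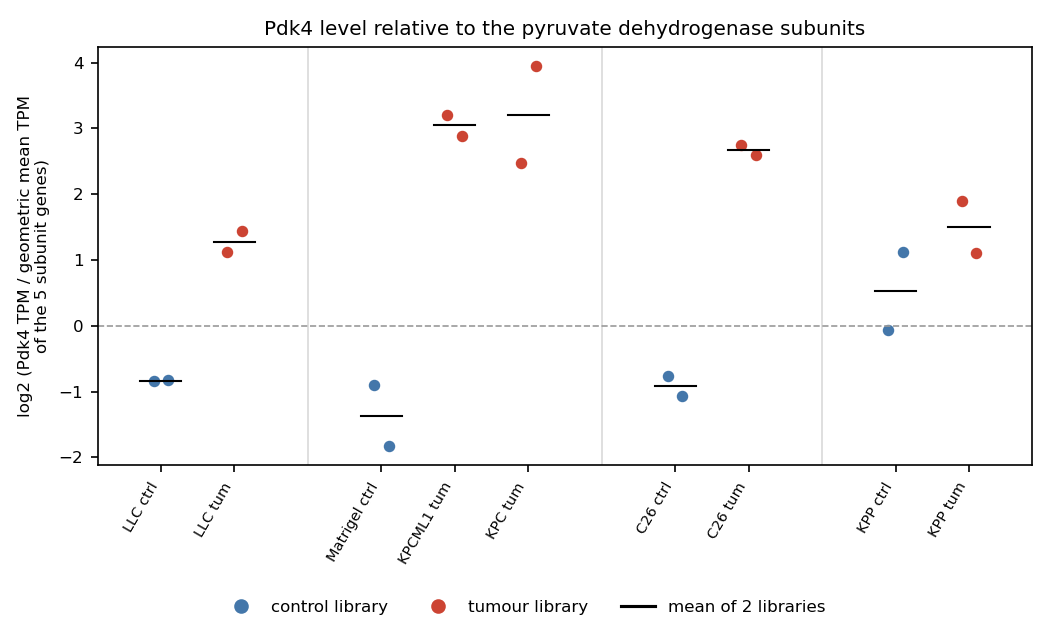
Log2 ratio of the Pdk4 TPM to the geometric mean TPM of Pdha1, Pdhb, Pdhx, Dlat and Dld (vertical axis, dashed line at equal levels) in each library of the 9 groups, with a bar for the mean of 2 libraries. The 6 controls of the LLC, Matrigel and C26 groups lie below 0 and all 10 tumour libraries above 0, and the KPP controls lie at -0.06 and 1.12.

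The phosphatase that undoes the action of the kinases fell where Pdk4 rose, and in the KPP model too. Pdp1 (chr4:11958184-11966452, minus strand), the catalytic subunit stimulated by calcium, was at 92.7 and 93.1 CPM in the LLC controls against 63.0 and 47.0 in the LLC tumour libraries, and 88.4 and 111 in the Matrigel controls against 53.7 and 28.1 with KPCML1 and 31.3 and 16.1 with KPC tumours. It stood at 109 and 116 CPM in controls against 42.8 and 19.0 with tumour in the C26 experiment, and 66.3 and 72.6 against 26.8 and 21.0 in the KPP experiment. Tumour libraries lay below the controls in each experiment. The decrease passed with KPC (-2.07 ± 0.39), C26 (-1.87 ± 0.38), KPP (-1.54 ± 0.38) and, barely, KPCML1 tumours (-1.28 ± 0.38, edgeR adjusted p = 0.0497), and it was -0.76 ± 0.37 with LLC (adjusted p = 0.204). The KPCML1 call was lost in 7 of 12 alternatives, among them without either Matrigel control or KPCML1 tumour 2 (adjusted p up to 0.375), the C26 call without tumour 2 (0.0528) and the KPP call without tumour 2 (0.0597).

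The TPM of Pdk4 was 0.927 to 10.6 times that of Pdp1 in the 8 controls and 7.47 to 225 times in the 10 tumour libraries, the highest being KPC tumour 2. Pdpr, the regulatory subunit of the phosphatase, fell by 0.98 in the KPP comparison (edgeR adjusted p = 0.0225) which was lost without control 1 or tumour 1 or with the KPP libraries alone (up to 0.178), and had a mean effect of -0.73 ± 0.15 (adjusted p = 0.000877). Pdp2, the other catalytic subunit, was at 2.25 to 8.44 CPM in all libraries and passed in no comparison.

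Upstream of the complex, the 2 genes of the mitochondrial pyruvate carrier fell in the mean effect, Mpc1 by 0.43 and Mpc2 by 0.84 on the log2 scale (edgeR adjusted p = 0.00571 and 4.08e-05). Mpc1 was at 356 and 352 CPM in the LLC controls against 218 and 189 in the LLC tumour libraries, and 294 and 332 in the Matrigel controls against 169.5 and 142 with KPCML1 and 300.0 and 202 with KPC tumours. It was at 299 and 404 CPM in controls against 234 and 238 with tumour in the C26 experiment, and 261 and 379 against 452 and 351 in the KPP experiment. The decrease passed with LLC (-0.80 ± 0.23) and KPCML1 (-1.01 ± 0.24) tumours, and the KPP groups overlapped (0.33 ± 0.23). The LLC call was lost in 7 of 12 alternatives, among them without any of its 4 libraries (adjusted p up to 0.245), and the KPCML1 call in 5 of 12, among them without either Matrigel control or KPCML1 tumour 2 (up to 0.191).

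Mpc2 had 369 and 329 CPM in the LLC controls against 161 and 136 in the LLC tumour libraries, and 222 and 293 in the Matrigel controls against 157 and 181 with KPCML1 and 181 and 165 with KPC tumours. It had 273 and 298 CPM in controls against 136 and 127 with tumour in the C26 experiment, and 248 and 343 against 280.0 and 162 in the KPP experiment. It passed with LLC (-1.23 ± 0.24, edgeR adjusted p = 0.00524) and C26 tumours (-1.12 ± 0.24, adjusted p = 0.00579). These calls were lost without LLC control 1 or tumour 2 (up to 0.0781) and without C26 tumour 2 (0.0568). KPP again gave overlapping groups for this gene.

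Among the 11 mitochondrial genes of the cycle proper, 9 were lower in the mean effect and none higher, where 26% of all tested genes were lower and 25.7% higher. The 2 that did not pass were Ogdh and Suclg2. The NAD-linked isocitrate dehydrogenase, a step at which the cycle is controlled, led the decreases through its catalytic subunit gene Idh3a (chr9:54586334-54604661, plus strand). Idh3a was at 892 and 782 CPM in the LLC controls against 271 and 258 in the LLC tumour libraries, and 642 and 828 in the Matrigel controls against 380.4 and 316 with KPCML1 and 361 and 384 with KPC tumours. It was at 708 and 738 CPM in controls against 291 and 223 with tumour in the C26 experiment, and 582 and 748 against 358 and 337 in the KPP experiment. No tumour library reached the lowest control of the series.

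The log2 fold changes of Idh3a were -1.66 ± 0.20 (LLC), -1.08 ± 0.19 (KPCML1), -0.98 ± 0.19 (KPC), -1.49 ± 0.19 (C26) and -0.94 ± 0.19 (KPP), with edgeR adjusted p from 0.000234 to 0.00562. Only the KPCML1 call was lost in any alternative, without Matrigel control 2 or KPCML1 tumour 2 (adjusted p up to 0.0880). The regulatory subunits moved less. Idh3b was at 782 and 655 CPM in the LLC controls against 477 and 428 in the LLC tumour libraries, and 514 and 631 in the Matrigel controls against 417 and 472 with KPCML1 and 501 and 513 with KPC tumours. Its levels were 592 and 620.0 CPM in controls against 405 and 323 with tumour in the C26 experiment, and 534 and 705 against 614 and 523 in the KPP experiment, and it passed with LLC (-0.67 ± 0.19) and C26 (-0.74 ± 0.19). The LLC call of Idh3b was lost in 7 of 12 alternatives, among them without any of its 4 libraries (adjusted p up to 0.247), and its C26 call without either control or tumour 2 (up to 0.130).

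Idh3g, the other regulatory subunit, had 464 and 367 CPM in the LLC controls against 293 and 267 in the LLC tumour libraries, and 326 and 370.0 in the Matrigel controls against 264 and 259.6 with KPCML1 and 294 and 345 with KPC tumours. It had 352 and 360.4 CPM in controls against 195 and 162 with tumour in the C26 experiment, and 315 and 429 against 252 and 211 in the KPP experiment. The decrease passed with C26 (-0.996 ± 0.19, edgeR adjusted p = 0.00292) and KPP tumours (-0.68 ± 0.19, adjusted p = 0.0127). The KPP value was -0.41 without control 2 and -0.49 without tumour 2 and then did not pass (adjusted p up to 0.165), nor did it with the KPP libraries alone. The 3 subunit genes of this enzyme were thus lower to unequal degrees, with mean effects of -1.28 ± 0.09, -0.45 ± 0.09 and -0.63 ± 0.09 for Idh3a, Idh3b and Idh3g.

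The 2-oxoglutarate dehydrogenase complex, built like the pyruvate complex and sharing Dld with it, was split. Dlst, its succinyltransferase core, was at 369 and 308 CPM in the LLC controls against 175 and 203 in the LLC tumour libraries, and 259 and 346 in the Matrigel controls against 192 and 206 with KPCML1 and 208 and 281 with KPC tumours. It was at 349.9 and 286 CPM in controls against 189 and 199 with tumour in the C26 experiment, and 239 and 280.1 against 221 and 202 in the KPP experiment. Dlst fell with LLC (-0.84 ± 0.20) and C26 tumours (-0.71 ± 0.20) and in the mean effect (-0.58 ± 0.09, edgeR adjusted p = 0.000179). Its LLC and C26 calls were each lost in 4 of 12 alternatives, among them without LLC control 1 or either LLC tumour library (adjusted p up to 0.137), without C26 control 1 or either C26 tumour library (up to 0.156), and with library totals. Ogdh, the decarboxylase of the same complex, ranged from 452 to 820.0 CPM and passed in no comparison, with log2 fold changes from -0.23 (C26) to 0.41 (LLC), and with library totals its LLC value passed as an increase (0.69), as did that of Suclg2 (0.44).

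Succinyl-CoA synthetase was also uneven. Suclg1, the subunit common to both forms, was at 415 and 313 CPM in the LLC controls against 217 and 203 in the LLC tumour libraries, and 243 and 304 in the Matrigel controls against 199 and 225 with KPCML1 and 204 and 219.8 with KPC tumours. It was at 320.2 and 324 CPM in controls against 208 and 162 with tumour in the C26 experiment, and 258 and 369 against 203 and 140.1 in the KPP experiment. It fell with LLC (-0.80 ± 0.23), C26 (-0.80 ± 0.23) and KPP tumours (-0.87 ± 0.23), with edgeR adjusted p of 0.0327, 0.0232 and 0.00909. Each of these 3 calls depended on single libraries: it was lost in LLC without control 1 or either tumour library (adjusted p up to 0.281), in C26 without either control or tumour 2 (up to 0.188), and in KPP without control 2 or tumour 2, where the value was -0.56 (up to 0.122), or with the KPP libraries alone.

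Sucla2, the subunit of the ADP-forming enzyme, had 661 and 554 CPM in the LLC controls against 419 and 336 in the LLC tumour libraries, and 427 and 504 in the Matrigel controls against 365 and 346 with KPCML1 and 398 and 448 with KPC tumours. It had 488 and 559 CPM in controls against 303 and 208 with tumour in the C26 experiment, and 424 and 579.7 against 327 and 209 in the KPP experiment. It fell with C26 (-1.04 ± 0.25) and KPP tumours (-0.90 ± 0.25), whereas Suclg2, the subunit of the GDP-forming enzyme, stayed at 57.1 to 76.3 CPM in all 18 libraries with a mean effect of 0.08 ± 0.07 (edgeR adjusted p = 0.346). The C26 call of Sucla2 was lost without control 2 or tumour 2 (adjusted p up to 0.113). Its KPP value was -0.63 without control 2 and -0.55 without tumour 2 and then did not pass (up to 0.139), nor did it with the KPP libraries alone. The TPM ratio of Sucla2 to Suclg2 was 10.7 to 14.4 in the 8 controls and 4.93 to 8.69 in the 10 tumour libraries.

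Mdh2, the mitochondrial malate dehydrogenase, was at 876 and 762 CPM in the LLC controls against 479 and 496 in the LLC tumour libraries, and 653 and 781 in the Matrigel controls against 522 and 579 with KPCML1 and 606 and 673 with KPC tumours. It was at 969 and 866 CPM in controls against 481 and 427 with tumour in the C26 experiment, and 655 and 801 against 606 and 526 in the KPP experiment. It passed with LLC (-0.75 ± 0.17) and C26 tumours (-1.01 ± 0.17, edgeR adjusted p = 0.0015). Citrate synthase (Cs) passed with C26 tumours (-1.05 ± 0.21, adjusted p = 0.00423) and fumarase (Fh1) with LLC tumours (-0.72 ± 0.21, adjusted p = 0.033), and their mean effects were -0.56 ± 0.10 and -0.49 ± 0.10. The LLC calls were lost for Fh1 in 7 of 12 alternatives, among them without any of the 4 libraries (adjusted p up to 0.244), and for Mdh2 in 4 of 12, among them without control 1 or either tumour library (up to 0.125). The C26 call of Cs was lost without tumour 2 (0.0548).

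A companion list of 5 genes completes the cycle with the 4 succinate dehydrogenase subunits, which also belong to the respiratory chain, and mitochondrial aconitase. Of these 5, 3 were lower with LLC, 1 each with KPCML1 and KPC, 4 with C26 and 3 with KPP tumours, and none was higher, where 6.23%, 4.38%, 13.7%, 9.80% and 19.3% of all genes were lower. Their median mean effect was -0.75, led by Sdhd (-0.94 ± 0.10), Sdhc (-0.75 ± 0.10) and Sdhb (-0.75 ± 0.12). Mitochondrial aconitase was the member that did not pass in the mean effect.

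The NADP-linked isocitrate dehydrogenase gene Idh2 (chr7:80094846-80115392, minus strand) went against the cycle. Its enzyme works in the same compartment as the NAD-linked form and yields NADPH. Idh2 was at 133 and 117 CPM in the LLC controls against 124 and 169 in the LLC tumour libraries, and 67.7 and 97.6 in the Matrigel controls against 222 and 349 with KPCML1 and 281 and 273 with KPC tumours. It was at 158 and 149 CPM in controls against 269.6 and 311 with tumour in the C26 experiment, and 120.3 and 221 against 363 and 276 in the KPP experiment. Both tumour libraries lay above both controls in the orthotopic, C26 and KPP comparisons and the LLC groups overlapped.

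Idh2 rose by 1.79 ± 0.30 with KPCML1 (edgeR adjusted p = 0.00372), 1.75 ± 0.30 with KPC (adjusted p = 0.00113), 0.92 ± 0.29 with C26 (adjusted p = 0.0369) and 0.90 ± 0.29 with KPP tumours (adjusted p = 0.0256), and the LLC value was 0.23 ± 0.29 (adjusted p = 0.661). The C26 call was lost in 6 of 12 alternatives, among them without any of its 4 libraries (adjusted p up to 0.203), the KPP call without control 1 or tumour 1 or with the KPP libraries alone (up to 0.234) and the KPCML1 call without tumour 2 (0.0587). Within a library the TPM ratio of Idh2 to Idh3a was 0.150 to 0.403 in the 8 controls and 0.648 to 1.84 in the 10 tumour libraries, LLC included. Idh1 and Aco1, the cytosolic isocitrate dehydrogenase and aconitase, passed in no comparison, at 16.6 to 36.7 CPM and 12.3 to 19.9 CPM.

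Within the pyruvate complex the TPM ratio of Dlat to Pdha1 was 0.245 to 0.342 in controls and 0.155 to 0.208 in tumour libraries. These 3 ratios and that of Pdk4 to Pdp1 were chosen after the values were seen and carry no test.

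**Figure D5:**
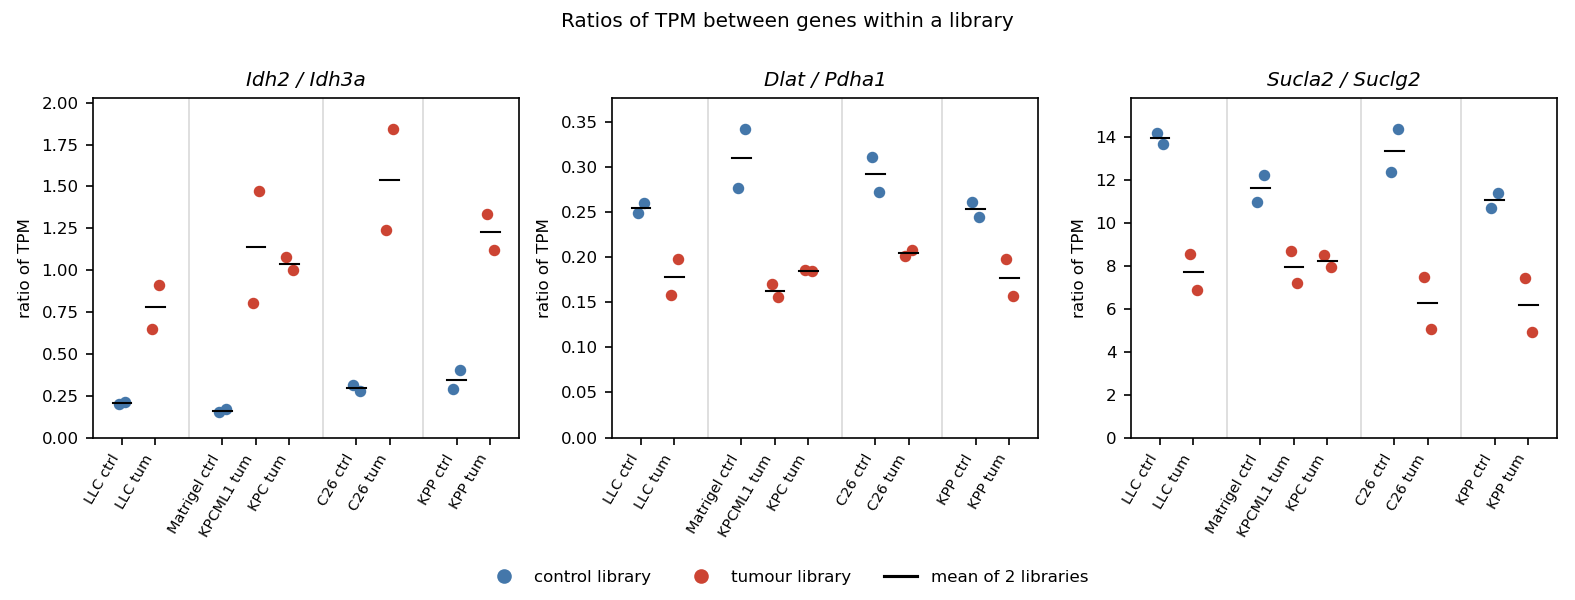
Ratio of TPM between 2 genes of the same library (vertical axes, from 0) for Idh2 to Idh3a, Dlat to Pdha1 and Sucla2 to Suclg2, with blue points for controls, red for tumour libraries and a bar for the mean of 2 libraries. In each panel all 8 controls lie on one side of all 10 tumour libraries, with Idh2 to Idh3a higher and the other ratios lower with tumour.

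The malate-aspartate shuttle, which carries reducing equivalents into mitochondria, shares Mdh1, Got1 and Got2 with this list. Got1, the cytosolic aspartate aminotransferase, was at 511 and 371 CPM in the LLC controls against 176 and 268 in the LLC tumour libraries, and 343 and 473 in the Matrigel controls against 271 and 319 with KPCML1 and 664 and 1330.4 with KPC tumours. It was at 385 and 308 CPM in controls against 156 and 233 with tumour in the C26 experiment, and 315 and 443 against 402 and 557 in the KPP experiment. It rose with KPC tumours (1.29 ± 0.34, edgeR adjusted p = 0.0128), where both libraries exceeded both controls, and the call was lost without Matrigel control 1 or KPC tumour 2 (adjusted p up to 0.185). In the LLC and C26 comparisons the values were -0.99 ± 0.34 and -0.83 ± 0.34 (adjusted p = 0.0696 and 0.0963), with both tumour libraries below both controls. Got2, the mitochondrial form, ranged from 320.3 to 614 CPM and passed in no comparison.

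For Mdh1, the cytosolic malate dehydrogenase, the gene sum is uncertain, since 81.8% of its matched fragments lay in a 549-base transcript and 2.07% in the longest coding one, and 867 transcripts of the files could not be matched to a gene. The sums were 21.1 and 34.2 CPM in the LLC controls against 9.47 and 6.69 in the LLC tumour libraries, and 25.6 and 32.5 in the Matrigel controls against 11.1 and 8.87 with KPCML1 and 7.71 and 15.0 with KPC tumours. They were 32.9 and 16.8 CPM in controls against 8.95 and 4.27 with tumour in the C26 experiment, and 16.8 and 6.44 against 7.72 and 12.7 in the KPP experiment. On these sums it fell with LLC (-1.78 ± 0.50) and C26 tumours (-1.91 ± 0.50). The LLC call was lost in 6 of 12 alternatives, among them without any of its 4 libraries (adjusted p up to 0.239), and the C26 call without control 1 or tumour 2 (up to 0.165). The authors' deposited tables, made from their own gene-level data, give Mdh1 a log2 fold change of -1.52 (LLC), -0.92 (KPC), -1.24 (C26) and -0.76 (KPP).

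Enzymes that refill or drain the cycle mostly did not pass. Pcx, the pyruvate carboxylase that makes oxaloacetate, rose with LLC tumours (1.43 ± 0.26, edgeR adjusted p = 0.00327) from 36.3 and 47.8 CPM to 116 and 111 CPM, and its mean effect was 0.56 ± 0.12. The call in LLC was lost without LLC control 1 (adjusted p 0.0608). Me1, the cytosolic malic enzyme, and Me2, the mitochondrial NAD-linked one, passed in no comparison, at 117 to 336 CPM and 1.88 to 4.77 CPM. Me3, the mitochondrial NADP-linked form, was at 86.5 and 91.3 CPM in the LLC controls against 66.0 and 66.4 in the LLC tumour libraries, and 79.5 and 89.6 in the Matrigel controls against 77.2 and 74.8 with KPCML1 and 91.3 and 94.1 with KPC tumours. It was at 109.8 and 114 CPM in controls against 73.9 and 62.3 with tumour in the C26 experiment, and 76.3 and 99.9 against 99.7 and 111 in the KPP experiment. It fell with C26 tumours (-0.72 ± 0.16, adjusted p = 0.00595, 0.0580 without tumour 2), but 48.0% of its fragments lay in a transcript with a retained intron and 9.61% in the longest coding one.

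Effects differed among the 5 models for 3 of the 35 genes (8.57%), Got1, Pdk4 and Me3, where 8.30% of all tested genes passed this joint test, a share near that of the pathway. The edgeR adjusted p was 0.0158 for Got1, 0.0242 for Pdk4 and 0.0429 for Me3. For Pdk4 the KPC effect exceeded the LLC effect by 3.00 ± 0.70 on the log2 scale (edgeR adjusted p = 0.0459, where 0.826% of all genes were higher in this difference). Its KPP effect was below the KPCML1 effect by 3.44 (difference -3.44 ± 0.71, edgeR adjusted p = 0.0296, 2.44% of all genes lower). The KPP effect minus the KPC effect was -4.08 ± 0.71 and did not pass (edgeR adjusted p = 0.0628).

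For Got1 the KPC effect was above the LLC effect by 2.28 ± 0.48 (edgeR adjusted p = 0.0329) and above the KPCML1 effect by 1.76 ± 0.35 (adjusted p = 0.0166, 2.94% of all genes higher), a difference that needs no control library. Me3 passed in no pair of models. The joint call of Pdk4 was lost without either LLC control or either Matrigel control (edgeR adjusted p up to 0.0702), that of Got1 without KPC tumour 2 (0.0524) and that of Me3 in 16 of 25 alternatives (up to 0.153). Outside the joint test, the KPP effect of Mpc1 exceeded that of KPCML1 (1.34 ± 0.33, edgeR adjusted p = 0.0439, 1.04% of all genes higher) and the KPP effect of Got2 that of LLC (0.92 ± 0.26, adjusted p = 0.0422, 3.93% of all genes higher). KPC and KPCML1 share their controls.

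By length-corrected level, the genes spanned a wide range. Over the 8 controls the median TPM was highest for Mdh2 (609), Mpc1 (438) and Idh3b (421) and lowest for Pdk3 (0.304), Pdp2 (0.735) and Me2 (1.35). Among the subunits Pdha1 (300.2) and Pdhb (266) stood above Dld (147), Dlat (80.8) and Pdhx (50.6). In these controls Pdk4 had a median of 80.2 TPM (41.3 to 244), beside that of Dlat.

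Of 7 factors known to act on Pdk4, 3 rose and 1 fell in the mean tumour effect, in which 25.7% of all tested genes rose and 26% fell. Foxo1 and Foxo3, transcription factors of the fasting response, rose in all 5 comparisons, with mean effects of 2.31 ± 0.27 and 1.49 ± 0.18 (edgeR adjusted p = 9.86e-06 and 1.08e-05). In the KPP comparison, where Pdk4 did not pass, they rose by 2.65 ± 0.56 and 1.17 ± 0.36. Esrra, an oestrogen-related receptor that acts on many genes of oxidative metabolism, fell in all 5 comparisons, with a mean effect of -1.11 ± 0.09 (adjusted p = 6.24e-07). The relation of these factors to Pdk4 or to the subunits was not tested.

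Neighbouring steps were described from lists of known function, to be read against the 26% of all tested genes that were lower in the mean effect and the 25.7% that were higher. Of 4 genes for other fates of pyruvate, 2 were lower in the mean effect, Ldha, the lactate dehydrogenase subunit of glycolytic muscle (-1.56 ± 0.16), and the alanine aminotransferase Gpt (-0.47 ± 0.11). Among 5 tested carriers of malate, citrate, aspartate and 2-oxoglutarate, 4 were lower, led by Slc25a11 (-0.79 ± 0.10), the 2-oxoglutarate carrier, and Slc25a12 (-0.54 ± 0.08), an aspartate-glutamate carrier. Of 6 genes for the entry of amino acids and propionyl-CoA into the cycle, 4 were lower, among them Pccb (-0.39 ± 0.09), a subunit of propionyl-CoA carboxylase.

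A list of 7 genes for other 2-oxoacid dehydrogenases, among them the branched-chain complex with its own kinase and phosphatase, had 2 higher and 2 lower in the mean effect, shares near those of all genes. Bckdhb, a subunit of the branched-chain decarboxylase, rose by 0.85 ± 0.11, against the direction of its counterpart Pdhb, while its phosphatase Ppm1k and its kinase Bckdk had values of -0.79 ± 0.13 and -0.45 ± 0.10. Of 3 genes for the attachment of lipoate, the cofactor of Dlat and Dlst, 1 was lower (Lipt2, -0.53 ± 0.14), again a share near that of all genes.

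The authors' deposited tables, computed with DESeq2, called 3 of the 35 genes higher and 22 lower with LLC, 3 and 4 with KPC, 2 and 21 with C26 and 2 and 7 with KPP tumours at an adjusted p under 0.05. Among all genes with an adjusted p, the calls in either direction were 3166 of 12311 (LLC) and 2930 of 13475 (KPC). For C26 they were 3026 of 14658 and for KPP 3165 of 14041. In the authors' deposited tables Pdk4 had log2 fold changes of 1.25 (LLC, adjusted p = 7.5e-13), 4.31 (KPC), 2.57 (C26) and 0.23 (KPP, adjusted p = 0.778). The LLC value is the one of these 4 whose call differed from that above.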

How the data were processed

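TA muscle RNA of 18 libraries in 9 groups of 2 was analysed. Per the labels' protocols, a directional kit was used on poly(A) RNA, with reads in pairs. The submitters' processing notes name bcl2fastq (2.20), FastQC, Salmon, DESeq2 and build mm10. Not given in the sources used here were Salmon's version, strand setting and transcript release. For each of 140825 transcripts the authors deposited estimated counts, not normalised, with effective length, and TPM, scaled within each library by Salmon. The authors' deposited DESeq2 tables hold log2 fold changes, p-values and adjusted p-values per gene. These tables were assigned to comparisons by name. The table with a cell number other than the labels give for KPCML1 was assigned to none and not used here.

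Transcripts were matched to the mm10 annotation by identifier without version (139958 of 140825, the others holding 0.412 to 0.685% of fragments). Counts of a gene's transcripts were added up and rounded to whole numbers. Genes passing filterByExpr were scaled by TMM and fitted in 1 edgeR (4.0.16) quasi-likelihood model of 9 groups (9 residual degrees of freedom). P-values were adjusted over 16096 genes, and genes under 0.05 were called. CPM use the normalised library size. TPM were summed per gene and compared between genes of a library. Levels of single genes in the controls were given as medians or ranges of TPM, and no change of a single gene between groups was read from TPM.

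The 35 genes, the lists and the tests were chosen with earlier results of these data known. Values per library are given for Pdk4, Pdk2, the subunits and each gene called in at least 2 comparisons or among models, and at most 3 genes of smallest p in the mean effect are named per companion list. For 1 gene of a companion list, which its list's counts include, the result is not reported here. Same-numbered libraries did not deviate together (correlation -0.172 to 0.0930), so replicate number was no block. Alternatives were other scalings, DESeq2 (1.42.0), no filter, length-scaled counts, the block, each experiment alone and leaving out each library. In simulated LLC data with 200 of 16096 genes changed, 21% of 2-fold and 61% of 4-fold changes were called, with 6 unchanged genes. R 4.3.3 and Python 3.11.15 were used.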

Additional observations from a re-analysis of the deposited data

Results flagged for a closer look

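The effect of a tumour on 3 genes differed among the 5 models by edgeR's quasi-likelihood test of 4 differences at once, with adjusted p of 0.0242 for Pdk4, 0.0158 for Got1 and 0.0429 for Me3. These are 8.57% of the 35 genes, near the 8.30% of all tested genes that passed. The call of Me3 was lost in 16 of 25 alternatives, that of Pdk4 in 5 and that of Got1 in 1. Pairs of models were then compared by the difference of their log2 fold changes with the same edgeR fit. Pdk4 differed between KPC and LLC by 3.00 and between KPP and KPCML1 by -3.44. Got1 differed between KPC and LLC by 2.28 and between KPC and KPCML1 by 1.76, and both KPC libraries (664 and 1330.4 CPM) lay above every other library. Got2, the mitochondrial aminotransferase, differed between KPP and LLC by 0.92, and Mpc1, of the pyruvate carrier, between KPP and KPCML1 by 1.34. No group holds more than 2 libraries, so no library was tested as standing apart within its group.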

How the results depend on the processing

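The mean tumour effect had 25 genes called with the main settings, kept within 1.5 times under all alternatives, and left-out libraries gave 24 to 27. Counts for single comparisons moved more. The LLC count of 15 became 24 with its libraries fitted alone and 9 with the replicate block, the KPCML1 count of 7 became 12 with DESeq2 and 4 with the block, the KPC count of 7 became 15 with library totals that leave out mitochondrially encoded genes (3 higher, 12 lower), and the KPP count of 12 became 4 with its libraries alone. Of genes that differed among models there were 3, against 11 with DESeq2, 10 with no filter on low counts and 1 with the block. The share of all genes called under each alternative, left-out libraries included, was not computed. Whether these counts moved apart from those of all genes is therefore not known. The library totals were chosen after seeing the data. The cause was not tested.

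Leaving out 1 library gave counts of 2 to 10 (LLC), 2 to 6 (KPCML1), 5 to 6 (KPC), 7 to 19 (C26), 5 to 11 (KPP) and 1 to 4 (among models). A group left with 1 library was assumed to vary like the others. The LLC count was 2 without control 1, 6 without tumour 1 and 3 without tumour 2. KPCML1 had 3 without Matrigel control 2 and 2 without tumour 2, C26 had 7 without tumour 2, and KPP had 7 without control 2 and 5 without tumour 2. The count among models was 1 without either LLC or either Matrigel control.

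Calls of single genes were lost most often without C26 tumour 2 (14 calls, adjusted p 0.0528 to 0.203), LLC control 1 (13 calls, 0.0584 to 0.281) and LLC tumour 2 (13 calls, 0.0511 to 0.245), and 9 were lost without LLC tumour 1, 7 each without KPP control 2 and KPP tumour 2, 6 each without either C26 control and without Matrigel control 2, and 5 each without LLC control 2 and KPCML1 tumour 2. Dlat was called in all 5 comparisons under each alternative. Among mean effects, Me3 was the only called gene to lose its call, in 6 of 25 alternatives.

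Pdk4 in the LLC comparison passed with no filter (1.29), library totals (1.52) and the LLC libraries alone (1.25). In the KPP comparison it reversed to -0.38 without KPP control 1 and to -0.40 without KPP tumour 1, and left-out libraries gave -0.40 to 1.11. Left-out libraries gave differences of the log2 ratio of Pdk4 to the subunits of 1.95 to 2.27 (LLC), 3.95 to 4.88 (KPCML1) and 3.84 to 5.31 (KPC). The ranges were 3.44 to 3.74 for C26 and 0.38 to 1.57 for KPP. All alternatives kept the direction. With 2 libraries per group, leaving out 1 cannot move this difference by more than the spread between libraries, so that limit tests nothing here. The replicate numbers do not pair the samples, and for the KPP experiment, where same-numbered libraries had a correlation of -0.172, crossing the numbers of the block gave 12 genes. Fits of 2 libraries per group limit what can be called, and genes such as Pdk3, at or below 1.20 CPM, had standard errors above 0.40 on the log2 scale.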
